A study of Rattus norvegicus with 30 samples.

Results

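Rat hepatocytes kept under 25 mM diisononyl phthalate (DINP) for 48 h were compared with hepatocytes kept under it for 24 h, on 5 arrays at each time, that is 10 of the 30 arrays of the study. The arrays were chosen by their titles, and every probe set other than the array's control sets was considered: 31042 of 31099, of which 18625 passed a filter on low signal and represented 10604 genes by name. Labels write the concentration as mM, and that unit is kept here. All cells were frozen hepatocytes of male Sprague Dawley rats from a commercial supplier, plated on collagen under Matrigel, and dosed on day 3 of culture. The other 20 arrays were cells given the vehicle (1% DMSO) or 100 mM DINP, again 5 at 24 h and 5 at 48 h. Each array came from its own well, which the labels call an independent culture; the number of donor animals is not given, and every p-value therefore reflects well-to-well spread, which may be technical. Dosed cells were set against cells of an earlier harvest, so that time in culture and time under DINP passed together and cannot be told apart within this comparison.

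DINP is a plasticiser, and phthalates of its kind are taken up by the liver, split to monoesters and known as activators of the nuclear receptor PPAR-alpha, which switches on genes of fatty acid uptake and oxidation. Hepatocytes make most plasma proteins, burn and store fat, break down amino acids, turn cholesterol into bile acids and detoxify drugs through cytochromes P450 and conjugating enzymes. Once isolated and plated they can carry stress and inflammatory programmes from the isolation, and lose part of their liver-specific expression with days in culture. What the isolation left in these cells was not tested.

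Values are log2(signal + 16), and a fold change is on that scale, where the added 16 understates the change of dim genes. Differences are 48 h minus 24 h, with the standard error (SE) of limma's fit to all 30 arrays, n = 5 arrays a group, and p-values adjusted by Benjamini-Hochberg over all 18625 probe sets tested; a gene was called at an adjusted p below 0.05. The arrays had been scaled to a nearly equal trimmed mean (1500.65 to 1500.76), no pair held identical values, and each array's correlation with the mean of the other 4 of its group lay between 0.978 and 0.986. The lowest was replicate 5 of the 25 mM 48 h group, with 0.978. The dimmest probe set tested had a mean of 7.96 over the arrays. All 17 hepatocyte markers on the array were tested, and at 25 mM 1 rose and 5 fell (median 0.04). The falls were 29.4% of them, against 9.07% of all genes tested, and included Cyp2c11, Apoa2 and Fgb. In vehicle 0 rose and 3 fell. Albumin (Alb) averaged 16.73 at 24 h and 16.84 at 48 h. Among markers of other cells, no neutrophil marker of the 5 on the array passed the filter. Of those on the array, 11 of 14 for macrophages, 7 of 14 for stellate cells and 5 of 11 for endothelium passed. So did 6 of 10 for bile duct or progenitor cells, 4 of 12 for lymphocytes and 4 of 5 for erythroid cells. Those below the dimmest mean tested included Pecam1 and Vwf (endothelium), Col1a2 and Pdgfrb (stellate cells), Adgre1 and Ptprc (macrophages and leukocytes) and Krt7 (bile duct). Of the 6 bile duct or progenitor markers tested, 2 rose at 25 mM, Cldn7 (0.83) and Epcam (0.27), and 0 fell. The call of Epcam was lost without 1 of the 10 arrays (adjusted p up to 0.0544). The summed signal of this list's genes on the array spanned 12269 to 14329 at 24 h and 15050 to 17775 at 48 h. In vehicle 1 marker rose, and the sum spanned 13660 to 15762 and then 17530 to 19992. In such bulk RNA, fewer or more cells of a type and less or more RNA per cell cannot be told apart.

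Between 24 and 48 h at 25 mM, 944 genes rose, 8.90% of those tested, and 962 fell, 9.07%. The median difference over all genes was 0.03. Among the 1906 called genes, 37 rose and 25 fell by 2-fold or more. The 5 arrays at 48 h lay wholly above the 5 at 24 h for 648 genes (6.11%) and wholly below for 631 (5.95%), and 1127 genes were both called and free of overlap. When each array was centred on its own median, the counts were 495 higher and 1139 lower, so that 30.3% of called genes were higher in place of 49.5%, and quantile normalisation gave 52.1%. The external poly-A spikes added to the RNA were also higher at 48 h, at 11.83 against 11.14 (0.69, exact permutation test, 2-sided, p = 0.00794, the smallest that 5 against 5 arrays can give, adjusted p = 0.0397 over 10 control tests); their part in the balance of rises and falls was not tested. The same spikes were 0.41 higher at 48 h in vehicle cells. In vehicle cells 1006 genes rose (9.49%) and 840 fell (7.92%), and at 100 mM 669 rose (6.31%) and 541 fell (5.10%). Arrays free of overlap were found for 6.84% of genes on the higher side and 5.80% on the lower in vehicle, and for 6.66% and 5.12% at 100 mM.

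**Figure D1:**
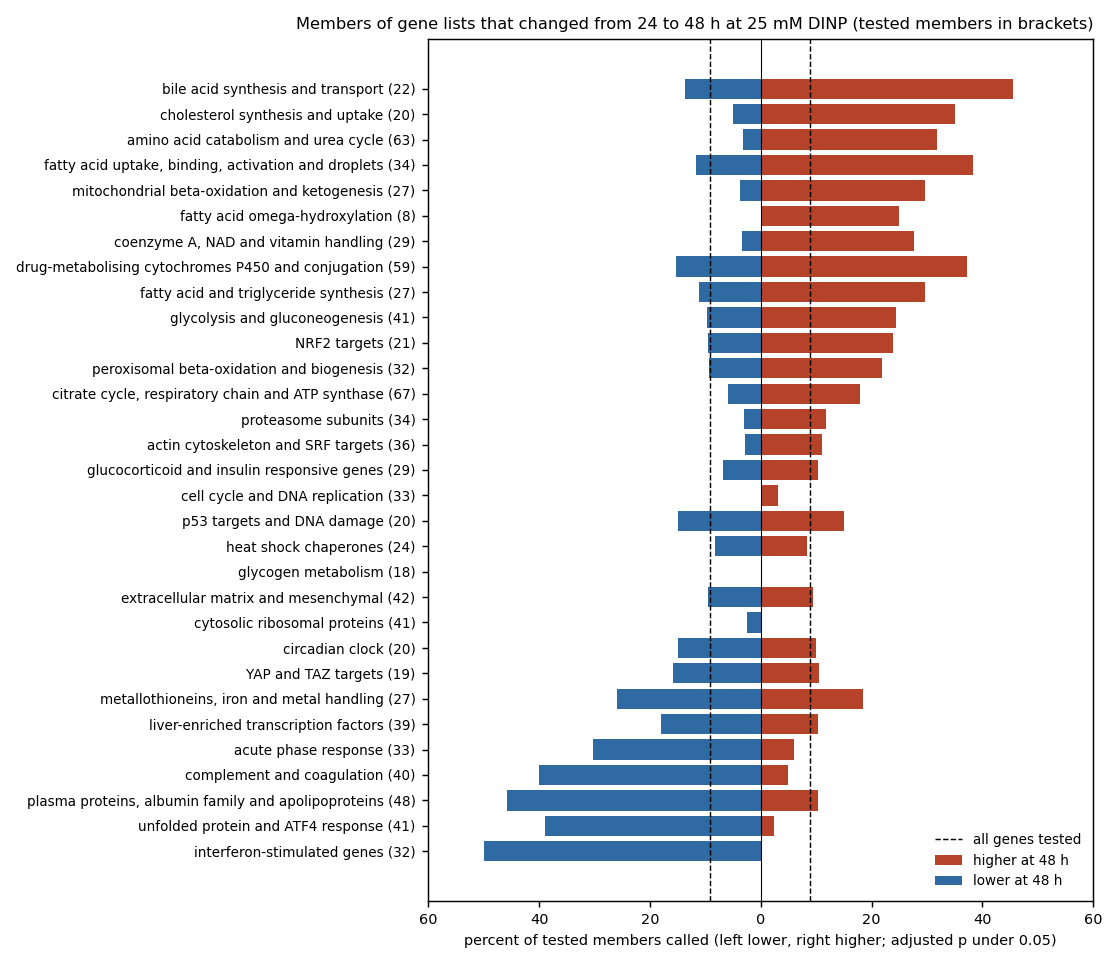
Percent of the tested members of 31 gene lists that were called higher (right) or lower (left) at 48 h than at 24 h under 25 mM DINP; dashed lines mark the share over all genes tested, 8.90% higher and 9.07% lower, and brackets give the number of members tested. Interferon-stimulated genes (50.0% lower) and plasma proteins (45.8% lower) stand at one end and bile acid genes (45.5% higher) at the other.

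Of the genes named, the deepest fall was that of Serpina6, a secreted liver protein. Serpina6, which encodes the corticosteroid-binding globulin of plasma, read 11.74, 11.78, 12.06, 11.80 and 11.80 on the 5 arrays at 24 h and 9.55, 8.97, 9.82, 9.49 and 9.36 at 48 h. Every 48 h array lay more than 1 unit below every 24 h array. The difference was -2.40 ± 0.14 (SE), 5.26-fold lower, adjusted p = 6.05e-14, and vehicle cells gave -2.64. C9, the pore-forming last component of complement, read 12.53, 12.62, 12.65, 12.62 and 12.70 at 24 h and 10.80 to 11.29 at 48 h, with replicate 5 the highest. Neither time overlapped the other, and C9 fell by 1.58 ± 0.09 on the log2 scale (adjusted p = 3.52e-14), beside -1.55 in vehicle. Serpina3c, a serine protease inhibitor of rat plasma, fell from a mean of 14.79 to 12.99 (-1.79 ± 0.14), with its relative Serpina3l falling by 1.17. These clade A serpins are close copies, and probe sets can share signal between copies.

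Of 48 tested plasma proteins, albumin family members and apolipoproteins 22 fell and 5 rose (median -0.12, against 0.03 over all genes), and in vehicle cells 21 fell and 2 rose. Alb changed by 0.11 ± 0.10 (adjusted p = 0.517) and alpha-fetoprotein (Afp) by 0.11 ± 0.11 (adjusted p = 0.592), neither past the threshold. Pon1, the lipoprotein-bound paraoxonase, fell by 0.76, and Apoa2, an apolipoprotein of HDL, by 0.42. Of 40 complement and coagulation genes 16 fell and 2 rose (median -0.14; 18 and 3 in vehicle). C6, another component of the membrane attack complex, fell by 0.78 and Fgb, the fibrinogen beta chain, by 0.41. The 3 C1q chains, which macrophages make, fell as well: C1qb by 0.76, C1qc by 0.56 and C1qa by 0.45. They were 3 of 11 tested macrophage markers, none of which rose; the summed signal of the list's genes on the array spanned 14001 to 15313 at 24 h and 12850 to 15182 at 48 h, and its part in the complement count was not tested. The calls of C1qa and C1qb each failed without some single arrays (5 and 3 of the 10, adjusted p up to 0.0789 and 0.0877).

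Of 33 tested acute phase genes, which the liver raises in inflammation, 10 fell and 2 rose (median -0.14), and in vehicle 8 fell and 4 rose. Hamp, the iron hormone hepcidin, read 11.68, 12.04, 12.11, 11.81 and 11.89 at 24 h and 10.03, 10.35, 10.36, 10.55 and 10.23 at 48 h. The highest 48 h array stood more than 1 unit below the lowest 24 h array (-1.60 ± 0.18, 3.03-fold lower, adjusted p = 1.13e-07). Saa3, a serum amyloid A protein, fell by 1.22 ± 0.10 and Cp, the copper oxidase ceruloplasmin, by 0.85 ± 0.10. In vehicle cells Saa3 fell by 1.17, Cp by 0.73 and Hamp by 1.06. A2m, the protease inhibitor alpha-2-macroglobulin, an acute phase protein in the rat, read 16.50, 16.49, 16.46, 16.73 and 16.54 at 24 h and 15.48, 15.35, 15.34, 15.36 and 15.09 at 48 h. Its fall of 1.22 ± 0.08 was deeper than the 0.59 by which it fell in vehicle cells, a difference of -0.63 (adjusted p = 0.0072).

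**Figure D2:**
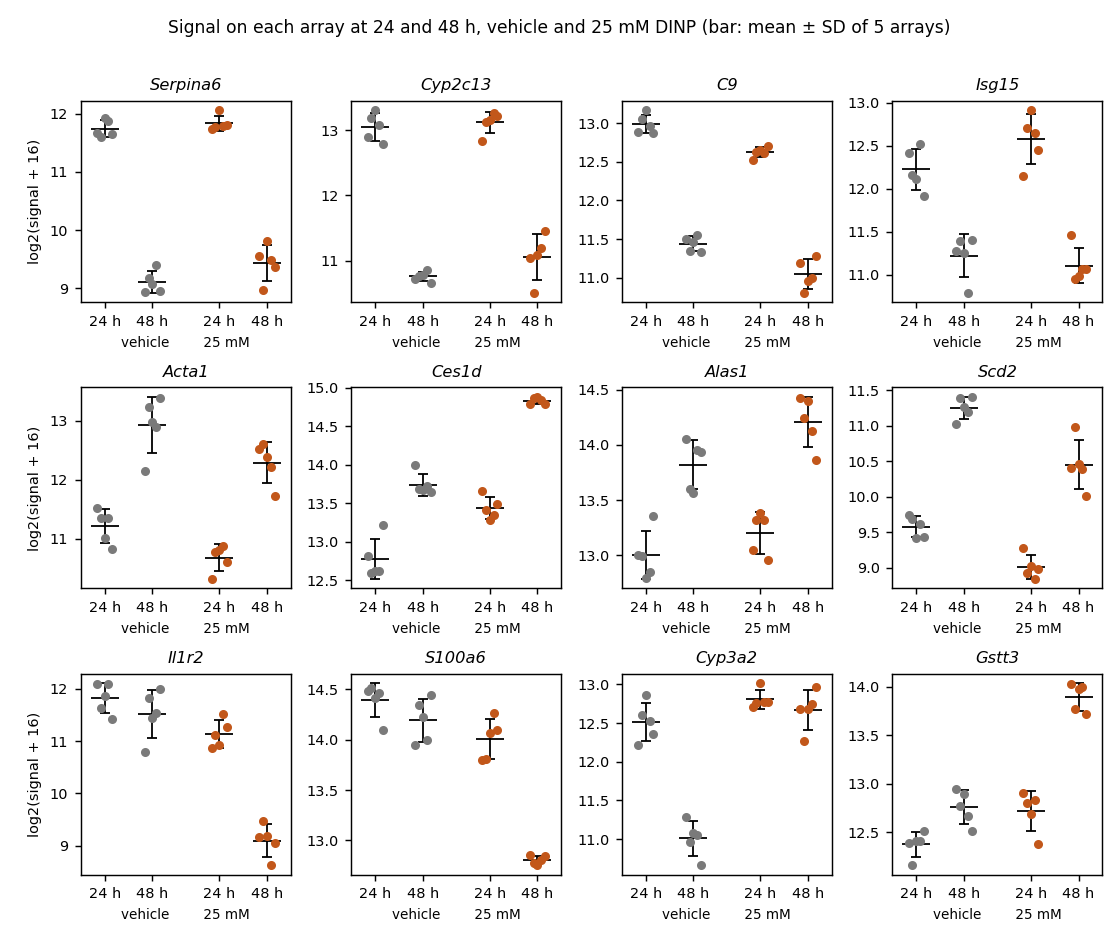
Level of 12 genes, log2(signal + 16), on each array at 24 and 48 h in vehicle (grey) and under 25 mM DINP (orange); each point is an array bars are mean ± SD of 5, and the genes were picked after their values were seen. Serpina6 fell in both kinds of cells, Il1r2 and S100a6 were called lower at 25 mM but not in vehicle, and Cyp3a2 was called lower in vehicle but not at 25 mM.

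Interferon-stimulated genes, the antiviral programme that cells switch on in answer to interferons, held the largest share of falls among the 31 lists. Of 32 tested members 16 fell and limma called 0 higher, also 0 at an unadjusted p below 0.05, with a median of -0.38 and 29 members below 0. In vehicle cells 10 fell (median -0.23) and at 100 mM 12 (median -0.29), with 0 called higher in either and 2 and 1 higher at an unadjusted p below 0.05. Isg15, a ubiquitin-like protein conjugated during antiviral responses, read 12.14, 12.71, 12.91, 12.65 and 12.46 at 24 h and 11.46, 10.95, 10.99, 11.07 and 11.07 at 48 h. Replicate 1 was the lowest array at 24 h and the highest at 48 h, yet the groups did not overlap (-1.47 ± 0.13, 2.76-fold lower, adjusted p = 2.01e-09). Rsad2, the antiviral enzyme viperin, read 11.33, 10.80, 11.04, 11.06 and 10.92 at 24 h and 10.17, 9.87, 9.30, 9.36 and 9.52 at 48 h. It fell by 1.38 ± 0.17 (adjusted p = 4.57e-07) where vehicle cells gave -0.43 (adjusted p = 0.0847), a difference of courses of -0.95 that missed the threshold (adjusted p = 0.0865). Usp18, which removes Isg15 from proteins, fell by 1.20 ± 0.13 and the dynamin-like Mx2 by 1.23 ± 0.19; vehicle cells gave -0.79 and -1.35. The difference between the courses was called by limma for 0 of the 32 members, with 6 below vehicle at an unadjusted p below 0.05. Over all 10604 genes that unadjusted count was 995, in either direction. The antigen-processing genes Tap1, Psmb8 and B2m, chosen after their values were seen, gave -0.01, -0.04 and 0.09, none of them called.

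Interferon-activated factors are known to bind GAAA repeats, and the promoters of 4 called members that hold such letters, picked after their values were seen, are shown to make that motif visible. Sequences are the 250 bases before the gene's start from RefSeq's GRCr8 table, 5′ to 3′ on the gene's strand, and capitals mark each match to GAAA, 2 bases of any kind and GAAA again, on either strand (TTTC, 2 bases and TTTC where the match is on the opposite strand). They come from chr6:48788121-48788370 (Rsad2, minus strand), chr16:18254968-18255217 (Bst2, minus strand), chr1:205800024-205800273 (Irf7, minus strand) and chr12:41330216-41330465 (Oas1a, plus strand).
Rsad2: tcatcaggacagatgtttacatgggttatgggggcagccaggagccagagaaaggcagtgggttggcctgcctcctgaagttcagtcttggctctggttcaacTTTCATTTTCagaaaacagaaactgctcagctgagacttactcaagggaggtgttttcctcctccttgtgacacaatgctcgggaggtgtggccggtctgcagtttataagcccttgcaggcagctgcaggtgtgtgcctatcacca
Bst2: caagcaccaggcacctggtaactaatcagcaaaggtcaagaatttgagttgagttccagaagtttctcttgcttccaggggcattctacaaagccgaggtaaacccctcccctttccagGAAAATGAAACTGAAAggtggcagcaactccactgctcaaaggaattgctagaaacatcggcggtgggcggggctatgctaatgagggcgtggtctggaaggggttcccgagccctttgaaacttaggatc
Irf7: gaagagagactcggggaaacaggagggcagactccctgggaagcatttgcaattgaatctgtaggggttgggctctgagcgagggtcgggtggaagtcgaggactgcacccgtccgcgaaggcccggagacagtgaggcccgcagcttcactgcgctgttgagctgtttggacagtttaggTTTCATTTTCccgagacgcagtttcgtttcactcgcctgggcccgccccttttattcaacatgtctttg
Oas1a: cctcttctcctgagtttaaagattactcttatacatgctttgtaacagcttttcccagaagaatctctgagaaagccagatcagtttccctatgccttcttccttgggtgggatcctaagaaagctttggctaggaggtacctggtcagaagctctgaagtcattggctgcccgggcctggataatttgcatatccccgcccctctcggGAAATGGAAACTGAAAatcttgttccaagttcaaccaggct
Bst2 and Oas1a each held 2 overlapping matches, printed as 1 run of capitals; in Oas1a they ran from 41 to 26 bases before the start.

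The levels of these genes fell with the rest of the list: Bst2, the membrane tether of budding virus, by 0.83, Irf7, a transcription factor of the interferon genes, by 0.75, and Oas1a, an oligoadenylate synthetase, by 0.61. A promoter was given for 25 of the 32 tested members, and 17 of them held the motif (68.0%), against 3.61% of the 27457 genes with a promoter and 2.80% of the tested genes. Among the called members it was 8 of 11 (72.7%) and among those not called 9 of 14 (64.3%). A match is a run of letters, not a site shown to be used. Over all genes, 4.92% of those called lower and 2.89% of those called higher held it. The 40 genes behind the first share include the 8 called members of the list.

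**Figure D3:**
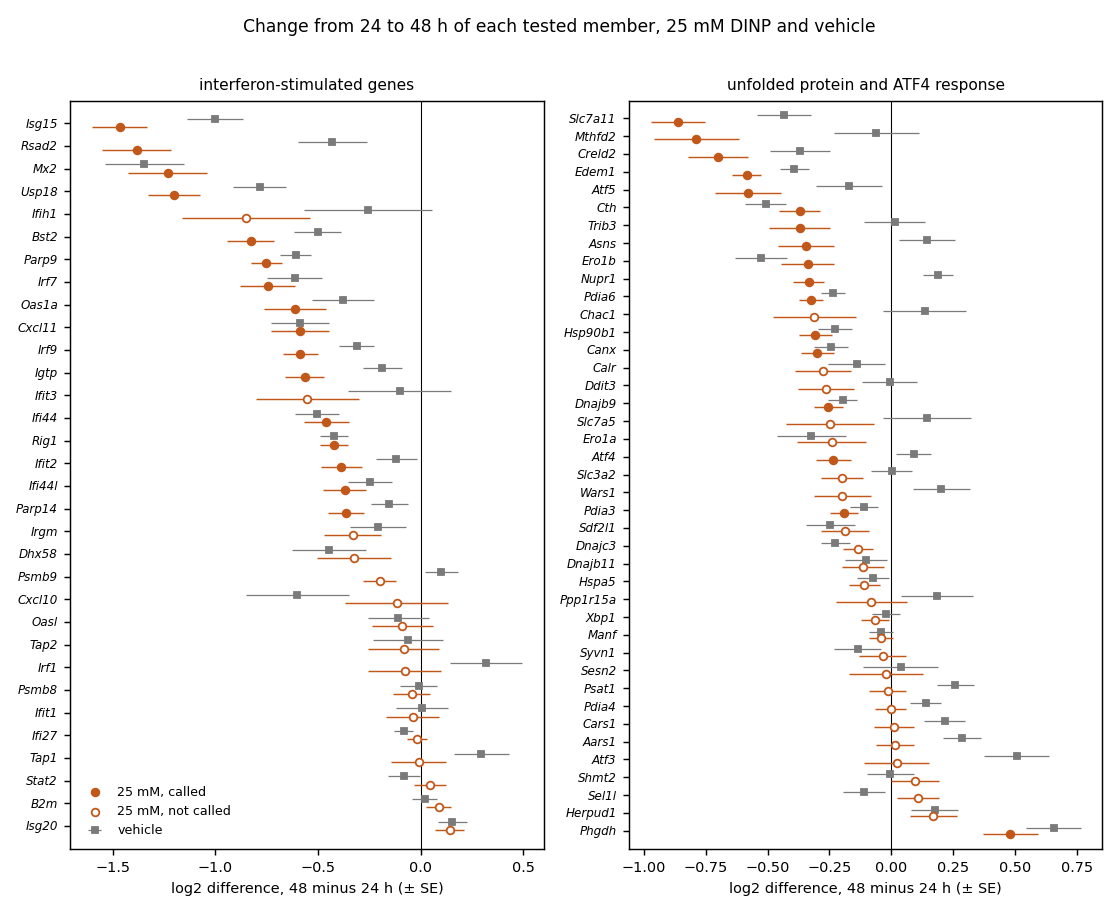
Change from 24 to 48 h (log2 difference ± SE) of every tested interferon-stimulated gene (left) and every tested gene of the unfolded protein and ATF4 response (right) at 25 mM (circles, filled where called) and in vehicle (grey squares). At 25 mM 29 of 32 and 34 of 41 members lie below 0.

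Genes of the unfolded protein response and of ATF4, the factor that raises amino acid supply under stress, had 16 falls and 1 rise among 41 tested members (median -0.20), beside 10 falls and 5 rises in vehicle (median -0.04) and 7 and 2 at 100 mM. Slc7a11, the cystine importer, read 10.35, 10.32, 10.25, 10.27 and 10.59 at 24 h and 9.33, 9.85, 9.32, 9.56 and 9.41 at 48 h. No array at 48 h reached the 24 h group (-0.86 ± 0.11, adjusted p = 8.1e-07). Mthfd2, a mitochondrial enzyme of folate metabolism, fell by 0.79 ± 0.17 at 25 mM and changed by -0.06 (adjusted p = 0.879) in vehicle; the difference of the courses, -0.73, missed the threshold (adjusted p = 0.324). Creld2, an endoplasmic reticulum protein induced by unfolded proteins, fell by 0.70 ± 0.12. The member that rose was Phgdh, the first enzyme of serine synthesis, named after its value was seen. By limma 1 of the 41 courses was called different from vehicle, that of Nupr1, also named after its value was seen. Nupr1 fell by 0.33 at 25 mM and rose by 0.19 in vehicle (difference -0.52, adjusted p = 0.0025).

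Of 59 tested drug-metabolising cytochromes P450 and conjugating enzymes 22 rose and 9 fell (median 0.17), where vehicle cells had 12 rises and 14 falls (median 0.03). Ces1d, a carboxylesterase that cleaves ester drugs and lipids, read 13.66, 13.42, 13.28, 13.35 and 13.50 at 24 h and 14.79, 14.87, 14.89, 14.84 and 14.79 at 48 h. Its 48 h arrays lay close together, more than 1 unit above the 24 h arrays (1.40 ± 0.09, 2.63-fold, adjusted p = 1.67e-12; 0.97 in vehicle). Gstt3, a theta class glutathione transferase, read 12.91, 12.80, 12.69, 12.83 and 12.37 at 24 h and 14.02, 13.77, 13.98, 14.00 and 13.72 at 48 h. That rise of 1.18 ± 0.10 exceeded the 0.38 of vehicle cells by 0.80 (adjusted p = 0.00254).

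Within the same list the male-specific Cyp2c13 went the other way, with 12.84, 13.12, 13.15, 13.26 and 13.23 at 24 h and 11.04, 10.50, 11.08, 11.19 and 11.45 at 48 h. Every 48 h array lay more than 1 unit below every 24 h array (-2.07 ± 0.14, 4.19-fold lower, adjusted p = 2.06e-12), and in vehicle the difference was -2.29. Cyp2c11, the main male P450 of rat liver, fell by 0.55 ± 0.13, and Cyp1a2, a target of the aryl hydrocarbon receptor, by 0.95 ± 0.09 while its neighbour Cyp1a1 gave 0.14 (adjusted p = 0.481). Cyp2e1, the ethanol-oxidising P450, gave 0.28 (adjusted p = 0.0695). The P450 and Gst families hold close copies that probe sets may not keep apart. With arrays centred on their medians the list's rises numbered 14 in place of 22. Alas1, the enzyme that opens heme synthesis and so supplies the P450s, rose by 1.01 ± 0.11 (adjusted p = 6.1e-08) and by 0.82 in vehicle.

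Bile acid synthesis and transport had the largest share of rises among the 31 lists, 10 of 22 tested members against 3 that fell (median 0.33). In vehicle cells 4 rose and 1 fell (median -0.02). With median centring 7 rose and 3 fell at 25 mM, and with single arrays left out 8 to 10 rose and 1 to 3 fell. Cyp8b1, which makes the cholic acid branch, read 14.11, 14.20, 14.14, 14.36 and 14.03 at 24 h and 14.96, 14.65, 14.99, 14.80 and 14.66 at 48 h. The groups did not overlap (0.64 ± 0.08, adjusted p = 7.08e-07), and the vehicle difference was 0.17 (adjusted p = 0.179). Cyp7a1, the enzyme that opens and limits the making of bile acids, read 10.18, 9.12, 9.23, 9.15 and 9.81 at 24 h and 10.03, 10.17, 10.37, 10.44 and 10.89 at 48 h. One 24 h array, replicate 1, lay among the 48 h arrays (0.89 ± 0.17, adjusted p = 0.000562; 0.14 in vehicle, adjusted p = 0.686). Slc27a5, which activates bile acids for conjugation, rose by 0.80, and Abcc3, a basolateral exporter, by 0.66. Slc10a1, the sodium-dependent importer of bile acids, rose by 0.45 ± 0.10, and Slco1b2, an organic anion importer, by 0.50 ± 0.13. By the test of the difference, 2 of the 22 members had courses apart from vehicle, Slc10a1 (0.72, adjusted p = 0.0147) and Slco1b2 (0.83, adjusted p = 0.0367). The call of Slco1b2 did not hold without 12 of the 20 arrays left out in turn (adjusted p up to 0.104), and with median centring neither held (Slc10a1 adjusted p = 0.137, Slco1b2 0.118).

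Of 63 tested genes of amino acid breakdown and the urea cycle 20 rose and 2 fell (median 0.13), where vehicle cells had 9 rises and 9 falls. Sds, serine dehydratase, read 7.83, 7.63, 8.33, 7.90 and 6.73 at 24 h and 9.28, 8.97, 9.71, 9.39 and 9.54 at 48 h. The arrays did not overlap, though the 24 h mean of 7.68 lay below the dimmest mean tested (1.70 ± 0.33, adjusted p = 0.000563). Gpt2, an alanine aminotransferase, rose by 0.77 ± 0.08 and Prodh2, which oxidises hydroxyproline, by 0.75 ± 0.08. Median centring left 9 rises in the list. Cholesterol synthesis and uptake had 7 rises among 20 tested genes and 1 fall (12 and 1 in vehicle). Dhcr7, the enzyme of the last step to cholesterol, rose by 0.63 ± 0.08, while Sqle, squalene epoxidase, gave 0.04 (adjusted p = 0.87). By limma 0 of the 20 courses were called different from vehicle, with 3 lower at an unadjusted p below 0.05. Over all 10604 genes that unadjusted count was 995, in either direction.

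Among fat-handling genes, 13 of 34 for uptake, binding, activation and droplets rose and 4 fell (12 and 4 in vehicle). With median centring 9 rose and 4 fell at 25 mM, and with single arrays left out 9 to 14 rose and 3 to 4 fell. Cd36, the fatty acid translocase, read 11.27, 11.14, 11.26, 11.52 and 11.94 at 24 h and 12.28, 12.20, 12.42, 12.54 and 12.79 at 48 h. The arrays did not overlap (1.02 ± 0.14, adjusted p = 6.22e-06), and Cd36 rose by 1.15 in vehicle. Fabp1, the liver fatty acid binding protein, read 14.27, 14.54, 14.44, 14.48 and 14.16 at 24 h and 14.75, 14.54, 14.76, 14.96 and 14.89 at 48 h, a rise of 0.40 ± 0.08 (adjusted p = 0.00049). In vehicle it fell by 0.24 (adjusted p = 0.039), and the courses differed by 0.64 (adjusted p = 0.0027). Among 27 genes that build fatty acids and triglycerides there were 8 rises and 3 falls. Scd2, a stearoyl-CoA desaturase, read 9.27, 8.92, 9.03, 8.84 and 8.99 at 24 h and 10.41, 10.98, 10.47, 10.39 and 10.01 at 48 h. This was a rise of 1.44 ± 0.13 (adjusted p = 6.3e-10) beside 1.68 in vehicle.

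PPAR-alpha targets known from rodents under phthalates moved in both directions or missed the threshold. Cyp4a1, a fatty acid omega-hydroxylase, averaged 15.50 at 24 h and 16.14 at 48 h under DINP, and 12.92 and 13.63 in vehicle. Its rise over time, 0.64 ± 0.11 (adjusted p = 0.000148), stood beside 0.72 in vehicle. Cyp4a3 averaged 15.53 and 15.45 (-0.08 ± 0.11, adjusted p = 0.703), Acsl1, which activates long-chain fatty acids, 15.19 and 15.16, and Angptl4, an inhibitor of lipoprotein lipase, 14.41 and 14.44, none of them called. Acot1, an acyl-CoA thioesterase, read 10.97, 11.40, 11.93, 12.10 and 11.47 at 24 h and 12.68, 11.53, 11.94, 12.07 and 12.14 at 48 h, with both times overlapping (0.50, 95% interval -0.22 to 1.22, adjusted p = 0.39). In vehicle Acot1 averaged 5.40 and 6.54, below the dimmest mean tested. Ehhadh, the peroxisomal bifunctional enzyme, rose by 0.30 ± 0.10 (adjusted p = 0.0419) and by 0.54 in vehicle. Its call at 25 mM was lost without 7 of the 10 arrays taken out singly (adjusted p up to 0.111). Fabp3 rose by 1.35 ± 0.45 (adjusted p = 0.0381) from a 24 h mean of 7.87, below the dimmest mean tested. In vehicle it gave -0.64 (adjusted p = 0.401), and its call was lost without 8 of the 10 arrays (adjusted p up to 0.12). Cpt1a gave 0.35 (adjusted p = 0.0982), not called, beside 0.39 in vehicle.

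Against these, Pdk4, which turns pyruvate away from oxidation, fell from 14.54 to 14.06 (-0.48 ± 0.11, adjusted p = 0.00302) and gave 0.11 in vehicle, a difference of courses of -0.59 that missed the threshold (adjusted p = 0.139). Hilpda, a lipid droplet protein, fell by 0.38, and Fgf21 gave -0.58 (adjusted p = 0.0537), not called. Vnn1, a pantetheinase, rose by 0.77 ± 0.07 and by 0.69 in vehicle, and Aldh1a1, which oxidises retinal, by 0.78 ± 0.07 and 0.73. Of 32 tested peroxisomal genes 7 rose and 3 fell, and of 27 for mitochondrial beta-oxidation and ketogenesis 8 rose and 1 fell. Crot, the peroxisomal carnitine octanoyltransferase, fell by 0.54 ± 0.07 on its brightest probe set, with its other 2 at -0.53 and 0.37, and Pxmp2, a peroxisomal membrane channel, rose by 0.43 ± 0.06. Slc16a1, a carrier of lactate and ketone bodies, was the mitochondrial list's fall, by 0.56 ± 0.06, and Acsm5, a medium-chain acyl-CoA synthetase, its largest rise, by 0.53 ± 0.08. By limma 0 of the 32 peroxisomal courses were called different from vehicle, with 3 above it at an unadjusted p below 0.05. Over all 10604 genes that unadjusted count was 995, in either direction. With median centring the rises of these lists numbered 3 and 4.

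Other named rises lay outside these metabolic lists. Acta1, the skeletal muscle actin, read 10.31, 10.78, 10.80, 10.88 and 10.60 at 24 h and 12.52, 12.61, 12.38, 12.22 and 11.73 at 48 h. Even its lowest 48 h array, replicate 5, was above all 24 h arrays (1.61 ± 0.19, 3.06-fold, adjusted p = 1.64e-07; 1.72 in vehicle). The list of 36 actin and SRF genes as a whole had 4 rises and 1 fall, where vehicle cells had 12 rises. Its rises numbered 2 with median centring and 2 to 9 with single arrays left out, 9 without replicate 5 at 48 h and 2 without replicate 1 at 48 h. Lad1, a basement membrane anchoring protein, rose from 8.09 to 9.98 (1.89 ± 0.41, adjusted p = 0.0016), with 24 h arrays spread from 6.83 to 9.10. Pkp3, a desmosomal plakophilin, rose by 1.22 ± 0.23, and Clec14a, a C-type lectin of endothelium, by 1.30 ± 0.14, from 8.99 to 10.29; of 5 tested endothelial markers Lyve1 fell by 0.58 and the other 4 were not called. The call of Lyve1 was lost without 5 of the 10 arrays in turn (adjusted p up to 0.111). Ccn2, a secreted target of YAP, averaged 10.41 and 11.18 under DINP (0.77 ± 0.10, adjusted p = 7.4e-07) and 13.22 and 13.66 in vehicle. Ndufa4l2, a mitochondrial protein known as a hypoxia target, rose by 1.11 ± 0.17, and Ldhb, a lactate dehydrogenase, by 0.96 ± 0.10, against 1.04 and 1.41 in vehicle.

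Several large rises belonged to dim genes. Tmc6, Zfp668, Cimap3 and LOC102554253 rose by 1.27, 1.15, 1.08 and 1.20 from 24 h means of 7.73, 7.75, 7.45 and 7.51, all below the dimmest mean tested, and Ggt1, the gamma-glutamyl transferase, by 1.08 from 8.73. Without replicate 2 at 24 h, which read 6.92 where the others read 9.02 to 9.36, the rise of Ggt1 was 0.63, and its call held without each of the 10 arrays (adjusted p up to 0.0174). The calls of Cimap3 and LOC102554253 were lost without 5 and 7 of the 10 arrays in turn (adjusted p up to 0.171 and 0.111). Tsx rose by 1.23 ± 0.16, from 8.13 to 8.55 at 24 h and 9.32 to 9.88 at 48 h. Gstp3, a pi class glutathione transferase, fell by 1.53 ± 0.34 to a 48 h mean of 8.34.

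The remaining lists differed in how many of their members were called, against 8.90% higher and 9.07% lower over all genes. Of 41 tested genes of glycolysis and gluconeogenesis 10 rose and 4 fell, of 29 for coenzyme A, NAD and vitamins 8 and 1, and of 21 NRF2 targets 5 and 2. Of 67 for the citrate cycle and respiratory chain 12 rose and 4 fell, with 10 to 18 rises and 2 to 7 falls when single arrays were left out. With median centring the rises in glycolysis, coenzyme A and respiratory chain genes numbered 5, 4 and 4. Metal and iron handling had 5 rises and 7 falls among 27, and liver transcription factors 4 and 7 among 39 (5 and 4 with quantile normalisation). Among 41 cytosolic ribosomal protein genes 0 rose and 1 fell, but quantile normalisation gave 1 and 13, so that this count depends on the scaling. Cell cycle and DNA replication had 1 rise among 33 tested genes, and 3 rises and 1 fall with quantile normalisation. By limma 0 of 18 glycogen genes were called, with 2 higher and 2 lower at an unadjusted p below 0.05. Over all 10604 genes that unadjusted count was 3309, in either direction.

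The single cell cycle gene was Tk1, thymidine kinase, with 0.29 (adjusted p = 0.0211), a call lost without 4 of the 10 arrays in turn (adjusted p up to 0.0877), and cyclin D1 (Ccnd1) gave -0.04 (adjusted p = 0.901). Hnf4a, the central transcription factor of hepatocytes, fell by 0.23 ± 0.06 on its brightest probe set, while 1 of its other 2 probe sets was called higher, and no direction is given for the gene. Of the oxidative stress targets Hmox1 and Nqo1, heme oxygenase and a quinone reductase, gave 0.01 and 0.08, neither called, and Akr7a3, an aldehyde reductase, rose by 0.83 ± 0.08.

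The courses of 25 mM and vehicle cells, which share no array, overlapped in part. The sign was the same in vehicle for 882 (93.4%) of the 944 genes that rose at 25 mM and 913 (94.9%) of the 962 that fell. Among genes not called at 25 mM it was the same for 5685 (65.4%). Of the 944 genes that rose at 25 mM 498 (52.8%) also rose in vehicle, which is 49.5% of the vehicle rises, and 4 fell there. Of the 962 that fell 523 (54.4%) also fell in vehicle, 62.3% of the vehicle falls, and 2 rose. Vehicle cells had 1846 called genes (17.4%). Across genes, which are not independent of one another, Pearson's r of the differences was 0.55 with vehicle and 0.57 with 100 mM. In the direct test, 38 genes had a course at 25 mM that differed from vehicle (0.358%): 26 higher and 12 lower. The shares were 0.245% and 0.113%, and median centring gave 6 and 6. The median SE of this difference was 0.167, against 0.118 within a course, so a course not called different is not shown to be alike.

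**Figure D4:**
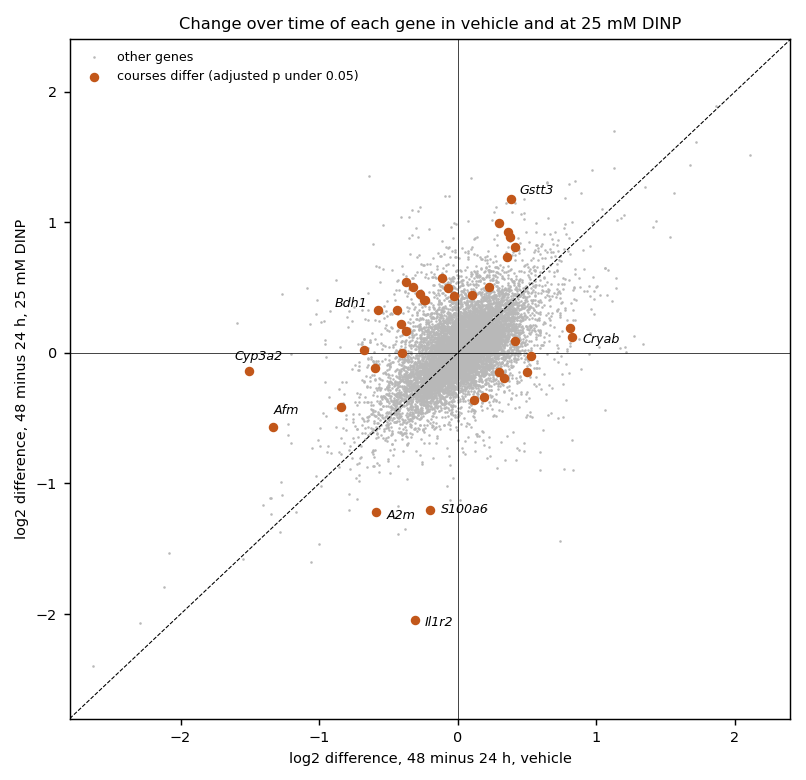
Change from 24 to 48 h of each of 10604 genes at 25 mM DINP (vertical) against vehicle (horizontal), as log2 differences, with the diagonal of equal change; orange points are the 38 genes whose courses differed. Il1r2 and S100a6 lie far below the diagonal and Cyp3a2 and Afm to its upper left.

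The largest of these differences on the high side was that of Cyp3a2, a steroid and drug oxidising P450. At 25 mM it read 12.71, 12.76, 13.02, 12.77 and 12.78 at 24 h and 12.69, 12.26, 12.68, 12.75 and 12.97 at 48 h, overlapping throughout (-0.14 ± 0.14, adjusted p = 0.588). In vehicle it read 12.22, 12.60, 12.86, 12.52 and 12.36 at 24 h and 11.29, 10.96, 11.08, 11.05 and 10.66 at 48 h. The vehicle arrays thus separated by time (-1.51, adjusted p = 3.26e-09), and the courses differed by 1.37 ± 0.20 (adjusted p = 0.0006). Afm, the vitamin E binding plasma protein afamin, fell in both, by 0.56 ± 0.07 at 25 mM and by 1.33 in vehicle, a difference of 0.77 with the smallest adjusted p of all, 6.23e-05. Apoa2 showed the same order, with falls of 0.42 and 0.84. Bdh1, the ketone body enzyme 3-hydroxybutyrate dehydrogenase, rose by 0.32 at 25 mM and fell by 0.58 in vehicle (difference 0.90, adjusted p = 0.00112). Its call at 25 mM was lost without 3 of the 10 arrays in turn (adjusted p up to 0.0964), while that of the difference held without each of 20 arrays. Dhrs7l1, a short-chain dehydrogenase, rose by 0.55 and fell by 0.37 (difference 0.92, adjusted p = 0.00898).

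On the low side stood Il1r2, the decoy receptor that binds interleukin-1 without signalling. It read 10.87, 11.12, 10.93, 11.53 and 11.28 at 24 h under DINP and 9.17, 9.47, 9.18, 8.62 and 9.05 at 48 h, and in vehicle 12.09, 11.64, 11.87, 12.10 and 11.42, then a mean of 11.52 ± 0.46 (SD). Of these 2 sets of cells only those under DINP separated by time (-2.05 ± 0.20, 4.13-fold lower, against -0.31 ± 0.20), and the courses differed by -1.74 ± 0.28 (adjusted p = 0.00112). S100a6, a calcium-binding protein, read 13.80, 13.81, 14.06, 14.27 and 14.10 at 24 h and 12.85, 12.77, 12.75, 12.80 and 12.84 at 48 h under DINP. The 48 h arrays lay close together and below all 24 h arrays (-1.20 ± 0.11), where vehicle gave -0.20 (adjusted p = 0.253; difference -0.998, adjusted p = 0.00112). Cryab, a small heat shock protein, gave 0.12 (adjusted p = 0.439) at 25 mM and rose by 0.82 in vehicle (difference -0.70, adjusted p = 0.00664). Thrsp, a regulator of lipogenesis, gave -0.19 and in vehicle rose by 0.33 (difference -0.52, adjusted p = 0.0211), a call lost without 4 of 20 arrays (adjusted p up to 0.0631) and with median centring (adjusted p = 0.113). Gpnmb, Neurl3, Omd and Ildr2 had calls that failed without 10, 12, 14 and 15 of the 20 arrays taken out singly (adjusted p up to 0.105, 0.114, 0.103 and 0.127).

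**Figure D5:**
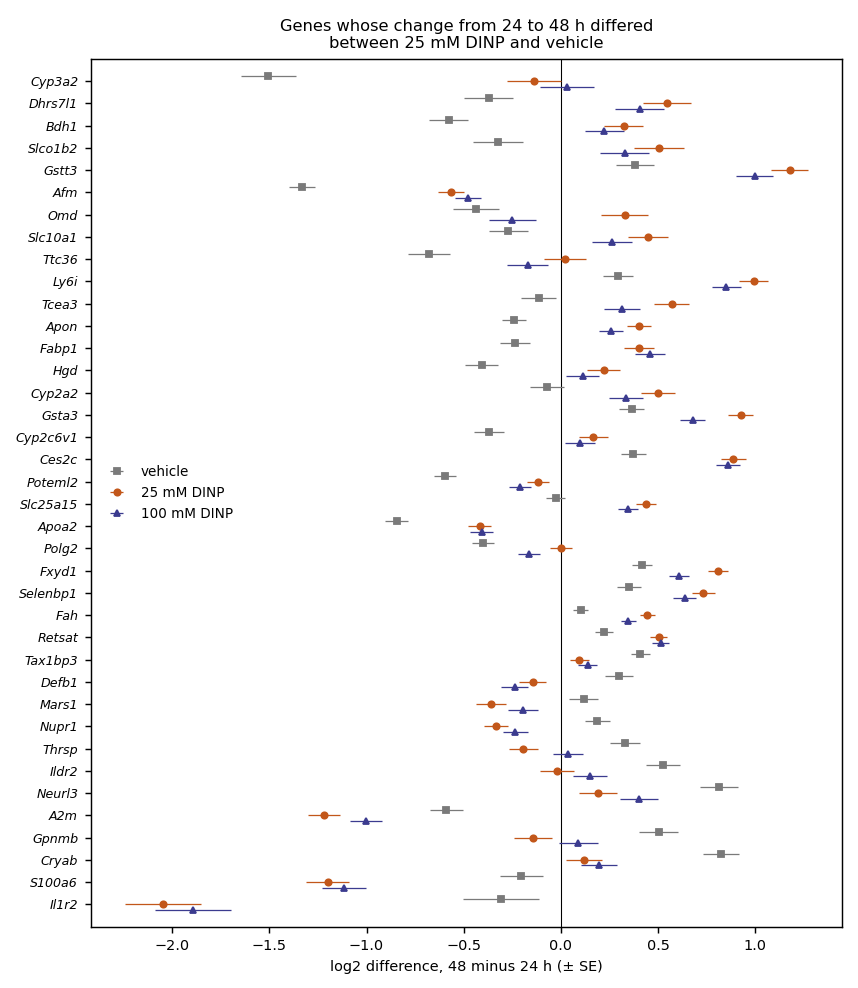
Change from 24 to 48 h (log2 difference ± SE) in vehicle (grey squares), 25 mM (orange circles) and 100 mM DINP (blue triangles) for the 38 genes whose course differed between 25 mM and vehicle, ordered by that difference. For 36 of the 38 the 100 mM value lies nearer the 25 mM value than the vehicle value. These genes were picked by the gap between 25 mM and vehicle, so that count cannot show whether the doses agree.

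Of the 26 genes on the high side 7 rose in both kinds of cells and more under DINP, 6 rose under DINP alone, 4 rose under DINP and fell in vehicle, 7 were called lower in vehicle only and 2 fell in both but less under DINP. Of the 12 on the low side 7 were called higher in vehicle only, 3 lower at 25 mM only, 1 fell in both and 1 fell at 25 mM but rose in vehicle. By list, the high side held 6 of 59 tested drug-metabolising genes, 2 of 22 bile acid genes and 2 of 63 amino acid genes. It also held 2 of 48 plasma protein genes, 1 of 27 mitochondrial beta-oxidation genes and 1 of 34 fatty acid uptake genes, against 0.245% of all genes. The low side held 2 of 33 acute phase genes, against 0.113%. The unfolded protein, heat shock, extracellular matrix and fatty acid synthesis lists had 1 each there. Here "alone" and "only" refer to the calls within a course, and the tested difference is that between the courses.

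The course at 100 mM, again without a shared array, had 1210 called genes (11.4%), and 490 (51.9%) of the 944 rises and 438 (45.5%) of the 962 falls at 25 mM were called there in the same direction, 73.2% and 81.0% of the 100 mM calls. Of the genes called at 25 mM 0 were called in the opposite direction at 100 mM. The direct test of 25 mM against 100 mM called 0 genes with limma, with a smallest adjusted p of 0.684 and 449 genes at an unadjusted p below 0.05. Il1r2 fell by 1.89 at 100 mM and by 2.05 at 25 mM, a difference of courses of -0.15 with a 95% interval of -0.73 to 0.42. S100a6 fell by 1.12 at 100 mM, beside 1.20 at 25 mM, and Cyp3a2 gave 0.03 (adjusted p = 0.936) beside -0.14. Gstt3 rose by 0.998 and Fabp1 by 0.46 at 100 mM, against 1.18 and 0.40 at 25 mM. The smallest adjusted p of the dose difference with limma among the 38 genes was 0.998. Those genes were picked by their gap between 25 mM and vehicle, and a course not called different is not shown to be alike.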

How the data were processed

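RNA from 30 wells was hybridised to 1-colour rat expression arrays, and the deposited intensity values, 1 column an array, were made by the authors with MAS5, per the submitters' processing notes; version and settings: not given in the sources used here. Each array's mean signal had been scaled alike. In R 4.3.3 the values were taken to log2 after adding 16, 57 control probe sets were set aside, and probe sets above the 40th percentile of the mean over all arrays were tested with limma 3.58.1 (lmFit on the 6 groups, eBayes with a variance trend, 24 residual degrees of freedom, Benjamini-Hochberg adjustment over all 18625 probe sets). Groups were taken from the titles. Where a gene had several probe sets, the brightest one tested stood for it. Of 31042 probe sets 20826 had 1 symbol in the platform annotation, 436 several and 9780 none. The list counts rest on 31 pathway and 8 cell marker lists, and members and lists were chosen with earlier results of these data known. Genes named were drawn from the 15 largest rises and falls free of overlap and from up to 3 called members a list. They were also drawn from the 8 largest differences of courses each way and a set of known targets. Not every gene that met these rules is described, and others are said to be chosen later. A gene difference with limma has a median SE of 0.118. The method was tested on simulated data. The array round (6 consecutive arrays, 1 of each group) was checked as a pairing: correlations of deviations at 25 mM were -0.03 to 0.07, so arrays were not paired. Promoters came from RefSeq's GRCr8 table. The number of arrays limits the precision.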

Additional observations from a re-analysis of the deposited data

Results flagged for a closer look

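In 17 of 274 gene and time combinations (6.2%) 1 array stood apart from the other 4; chance gives about 1 in 20. At 24 h these were replicate 1 for Tk1 (10.84), replicate 2 for Ggt1 (6.92, the others from 9.02 to 9.36), replicate 3 for Serpina6 (12.06) and Cyp3a2 (13.02), and replicate 5 for Slc16a1 (13.86), Ldhb (10.59), Igfbp4 (11.02) and Hnf4a (13.72). At 48 h they were replicate 1 for Isg15 (11.46), replicate 2 for Tmc6 (8.61), Serpina3l (13.16), Mvd (11.30) and Cyp4a3 (15.19), replicate 4 for Idh3g (12.58), Gpnmb (11.56) and Hnf4a (13.23), and replicate 5 for C6 (10.58).

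By limma's test of the difference, 18 of the genes drawn by the naming rules had a course at 25 mM that differed from vehicle. Above vehicle were Cyp3a2 (1.37), Dhrs7l1 (0.92), Bdh1 (0.90), Slco1b2 (0.83), Gstt3 (0.80), Afm (0.77), Omd (0.77), Slc10a1 (0.72), Fabp1 (0.64) and Apoa2 (0.43). Below it were Il1r2 (-1.74), S100a6 (-0.998), Cryab (-0.70), Gpnmb (-0.65), A2m (-0.63), Neurl3 (-0.62), Ildr2 (-0.55) and Thrsp (-0.52).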

How the results depend on the processing

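Constants of 1 and 64, quantile normalisation, other filters, array weights and other variance settings kept the counts of called genes within 1.5 times their value. Median centring of each array moved the rises at 25 mM to 495, the percent of called genes that were higher to 30.3 and the differences from vehicle to 12. With single arrays left out, 740 to 973 genes rose and 739 to 974 fell at 25 mM, 1409 to 1990 were called in vehicle, 840 to 1261 at 100 mM, 26 to 47 for the difference from vehicle and 0 for that between doses, and the pathway list genes called at 25 mM, 307 with all arrays, numbered 259 to 316. The array round as a replicate block gave 983 rises and 980 falls, 32 differences from vehicle and 0 between doses; the rounds do not pair the arrays (2 of 5 correlate best with their own number). The poly-A spike difference at 25 mM was 0.607 to 0.772 with single arrays left out (exact permutation test, adjusted p = 0.0794 without any one of the 48 h arrays). Signs changed for some differences near 0, none of them called. Under median centring Hmox1 was -0.0482, Angptl4 -0.0382 and Sqle -0.0241, and under quantile normalisation Hmox1 was -0.0162. With single arrays left out Hmox1 ranged from -0.0151 to 0.0546, Angptl4 from -0.0218 to 0.0746, Sqle from -0.0448 to 0.129, Ildr2 from -0.0580 to 0.0122, Acsl1 from -0.0687 to 0.0304, Ccnd1 from -0.0710 to 0.0133 and Acmsd from -0.0823 to 0.286. At 25 mM the 3′ minus 5′ difference of the control sets averaged 0.17 at both times for Gapdh. For Actb it averaged 1.35 at 24 h and 1.29 at 48 h. Its change from 24 to 48 h, single arrays left out, ranged from -0.0169 to 0.00112 for Gapdh at 25 mM. In vehicle that change ranged from -0.0133 to 0.00340 for Gapdh and from -0.0464 to 0.00604 for Actb. The change of the hybridisation spikes in vehicle ranged from -0.00381 to 0.0773. The cause was not tested.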
